A study of Mus musculus with 7 samples.

Results

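The fetal mouse ovary holds a small population of somatic cells that carry mRNA of both Pax8 and Wnt6. In the E12.5, E14.5 and E16.5 libraries 688 such cells were found among 27203 cells. The whole series held 52542 cells, and such cells of its other libraries are not in this count. Members were chosen by their measured UMI counts. A member had at least 1000 genes, at least 1 UMI (a unique molecular identifier, which counts 1 captured mRNA molecule) of Pax8, at least 1 UMI of Wnt6, and at most 1 UMI each of Epcam plus Cdh16, of Upk3b and of Dazl plus Ddx4. The last 3 limits were set against tubule and other epithelial cells, ovarian surface epithelium and germ cells, and each still allowed 1 UMI. There were 178 members at E12.5, 235 at E14.5 and 275 at E16.5. Each was set against the cells of the same library that passed the same limits with Wnt6 but with no Pax8 UMI, 1370, 3992 and 2716 comparison cells. All cells came from pooled gonads of C57BL/6J mice with no transgene or treatment, dissociated with trypsin and captured on the 10x Genomics Chromium system, with 1 library per age. The E11.5 library was of whole gonads and the others of ovaries, taken at E12.5 and E14.5, at E16.5 and E18.5, and on days P1 and P5 after birth. The E18.5 library and both libraries from after birth took no part in choosing the members and serve below as a repeat. No age had a second library, so within an age there is no replicate to test against. A test across ages with the library as a block was not run, and every interval given covers counting error only, not the spread between animals.

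Pax8 is a paired-box transcription factor of the thyroid, the kidney and the female duct system, and in the embryo it marks the mesonephric tubules and the rete, the network of cords and tubules that joins the gonad to the mesonephros. Wnt6 is a secreted Wnt ligand that in these ovaries is a marker of pregranulosa cells, the supporting cells that come to surround oocytes. A cell with both mRNAs therefore shares 1 defining gene with the tubules and 1 with the supporting cells. The working name of the population is rete-like, after Itm2a, Plac8 and Ncam1, and these markers were chosen with results of these libraries known.

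Members made up 11.499% (95% exact binomial interval 9.95 to 13.2) of the Wnt6-positive cells that passed the limits at E12.5, 5.56% (4.89 to 6.29) at E14.5 and 9.19% (8.18 to 10.3) at E16.5. They were 3.75, 2.06 and 2.49% of all cells of the 3 libraries. Their median depth was 11515 UMIs at E12.5, 7176 at E14.5 and 13617 at E16.5, close to the 12407, 6150 and 12491 UMIs of the comparison cells. The share of cells with a Pax8 UMI depends on depth, and the members of the E14.5 library were the shallowest. In all, 2128378, 2064200 and 4038704 UMIs were summed over members and 17208246, 26518653 and 35360440 over comparison cells, of 56662365, 88627169 and 125415948 UMIs in the libraries.

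Some features of the libraries bear on the results. The E16.5 library shared only 9 of its 11042 cell barcodes (0.0815%) with the other 6 libraries, while each of the others shared between 4.10 and 5.44%, although the labels name the same chemistry for all. The median mitochondrial share was also highest at E16.5, with 10.2% in members and 11.8% in comparison cells against 4.57 and 4.09% at E12.5. No barcode was shared between members of different fetal ages. The E12.5 library held cells with UMIs of Y-linked genes (Ddx3y, Eif2s3y, Kdm5d and Uty), 3.93% of members and 10.1% of comparison cells, and no member had one at E14.5 or E16.5. A doublet caller (Scrublet) marked 14, 10 and 5 members in the order of the ages, 7.87, 4.26 and 1.82% of them against 5.33, 2.08 and 4.20% of the comparison cells. The ages cannot be compared in this, since at E12.5 the automatic threshold marked only 0.510% of cells and the top 5% by score were taken in its place. These were kept; without them 27 genes were shared higher, with all 25 below among them, and 2 lower, with Mt1 lost. The shared genes are also counted without the E12.5 or the E16.5 library below. Results that rest on one of these libraries alone have no such check.

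Pax8 was thinly counted in its own cells. Of the members, 120 at E12.5, 184 at E14.5 and 152 at E16.5 stood just inside the limit with exactly 1 Pax8 UMI, which is 67.4, 78.3 and 55.3%, while Wnt6 was at 2 or more UMIs in 83.1, 78.7 and 84.0%. Free RNA in the droplets could supply such single molecules, and the same count in cells that should lack Pax8 gives its scale. Wnt6, which defines both groups, had the larger background: a Wnt6 UMI was in 10.4, 13.0 and 16.8% of germ cells, in 13.1, 14.4 and 19.6% of endothelial cells and in 17.5, 33.8 and 21.9% of erythroid cells, while 16.9, 21.3 and 16.0% of members had exactly 1. For Pax8 the shares were lower. Among germ cells (Dazl plus Ddx4 at 3 or more UMIs), 2.53% had a Pax8 UMI at E12.5, 1.04% at E14.5 and 0.9202% at E16.5, at median depths of 23958, 13026 and 25715 UMIs that were well above those of the members. Endothelial cells (Cdh5 plus Pecam1 at 2 or more UMIs) gave 1.96, 2.61 and 2.59%, erythroid cells 3.51, 1.30 and 2.32%, and immune cells 0, 0 and 1.65%. The share in Wnt6-positive cells was above each of these, but its interval met that of the 57 erythroid cells at E12.5 (0.428 to 12.1) and those of the endothelial cells (1.14 to 5.09) and the 77 erythroid and 37 immune cells (0.0329 to 7.02 and 0 to 9.49) at E14.5. After thinning to 2000 UMIs per cell it was 3.11, 1.95 and 2.53%, against 0.319, 0.154 and 0% of germ cells and 0, 0.654 and 0% of endothelial cells and 0, 0 and 0.258% of erythroid cells.

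Pax8 was not spread evenly over the Wnt6-positive cells. When members and comparison cells of each library were clustered together without Pax8, Wnt6, the other genes of the limits and the marker genes, 1 cluster per library had the highest share of Pax8-positive cells. At E12.5 this cluster had 148 cells, of which 56.8% (48.4 to 64.9) carried Pax8, against 6.71% of all cells outside it. At E14.5 it had 596 cells with 26.2% (22.7 to 29.9) against 2.18%, and at E16.5 348 cells with 59.5% (54.1 to 64.7) against 2.57%. It took in 47.2, 66.4 and 75.3% of the members at the 3 ages. The next richest cluster stood at 15.2, 8.02 and 8.55%, below the interval of the leading one in each library. This gap depended on how finely the cells were divided: at resolution 1.2 the next cluster stood at 25.8, 21.3 and 49.6%, and the leading one held 47.2, 39.1 and 51.6% of members. The later libraries, clustered in the same way, gave 1 such cluster each, with Pax8 in 30.0% of 80 cells at E18.5, 28.1% of 121 cells at P1 and 12.1% of 124 cells at P5, and with 0.705, 1.16 and 0.358% in the remaining cells. With 10 principal components the P5 cluster was larger and stood at 7.43% of 202 cells. Part of the Pax8-positive cells thus lay together by genes that the rule did not use, and 94, 79 and 68 members lay in other clusters. At E14.5 and E16.5 the Pax8 share outside the cluster was near that of endothelial cells (2.61 and 2.59%), and no Rnase12 UMI was counted in the members there. Tspan13 was still at 29.9 and 20.4 CPM in these members, against 8.14 and 5.64 CPM in the comparison cells outside the cluster, and the part of free RNA in them was not tested. The leading cluster also held 64, 440 and 141 comparison cells at the fetal ages, cells of like expression in which no Pax8 UMI was counted.

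**Figure D1:**
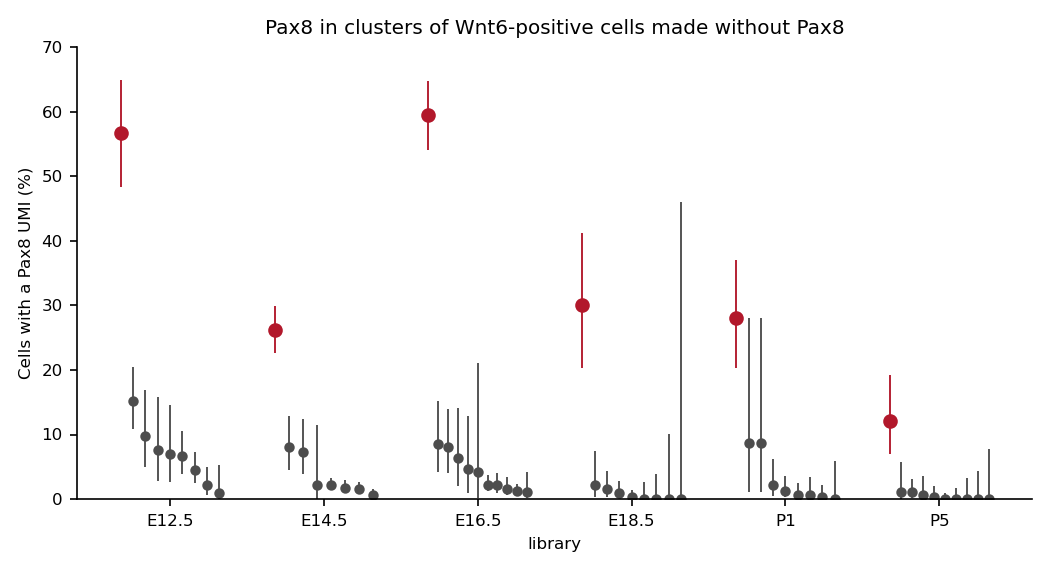
Share of cells with a Pax8 UMI (vertical axis, %) in each cluster of Wnt6-positive cells, by library (horizontal axis). Each point is a cluster with its 95% exact binomial interval, and the cluster with the highest share in each library is in red: it stood at 56.8, 26.2 and 59.5% at the 3 fetal ages and at 30.0, 28.1 and 12.1% afterwards.

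Levels below are the UMIs of a gene per 1000000 UMIs summed over the cells of a group (CPM), and a ratio is the level in members over that in comparison cells with its 95% exact conditional interval. A gene was measured in a library if the mean of the 2 levels was at least 10 CPM, and it was called past 2-fold after 10 CPM had been added to each level. The log2 changes given are on that scale, which understates the change of low genes. The rule fixed Pax8 at 0 in comparison cells. Members stood at 128, 147 and 144 CPM of Pax8 in the order of the ages. Wnt6, which both groups had to carry, was at 419, 403 and 370.4 CPM in members and 457, 488 and 412 CPM in comparison cells, slightly lower in members at each age.

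The 3 other markers behind the working name were higher in members at each fetal age. They belong to the same contrast as the rule and are given as a description. Plac8 (chr5:100553725-100572245, minus strand, GRCm38) was at 179, 108 and 42.6 CPM in members and 40.8, 20.9 and 14.536 CPM in comparison cells, a ratio of 4.40 (3.87 to 4.99), 5.14 (4.38 to 6.01) and 2.93 (2.45 to 3.49). Itm2a (chrX:107397099-107403376, minus strand), which codes for a type II membrane protein, was at 239, 395 and 159.7 CPM against 86.8, 113 and 97.9 CPM. Its ratio was 2.76 (2.49 to 3.05), 3.49 (3.23 to 3.78) and 1.63 (1.4970 to 1.77), so that Itm2a was past 2-fold at E12.5 and E14.5 but not at E16.5. Ncam1 (chr9:49502136-49798925, minus strand), the neural cell adhesion molecule, behaved alike, with 95.8, 147 and 206 CPM against 36.6, 36.2 and 104 CPM and ratios of 2.62 (2.23 to 3.08), 4.07 (3.56 to 4.63) and 1.98 (1.83 to 2.13). In the libraries that the rule did not use, Ncam1 was past 2-fold at all 3 ages (ratios of 4.41 (3.49 to 5.52), 2.76 (2.23 to 3.39) and 4.33 (3.07 to 5.96)). Itm2a had ratios of 2.23 (1.74 to 2.81), 1.81 (1.51 to 2.15) and 0.965 (0.610 to 1.45) there, and its P5 interval included 1. Plac8 had ratios of 1.84 (0.965 to 3.21), 2.39 (1.68 to 3.31) and 5.41 (2.12 to 11.6), past 2-fold at P1 and P5.

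**Figure D2:**
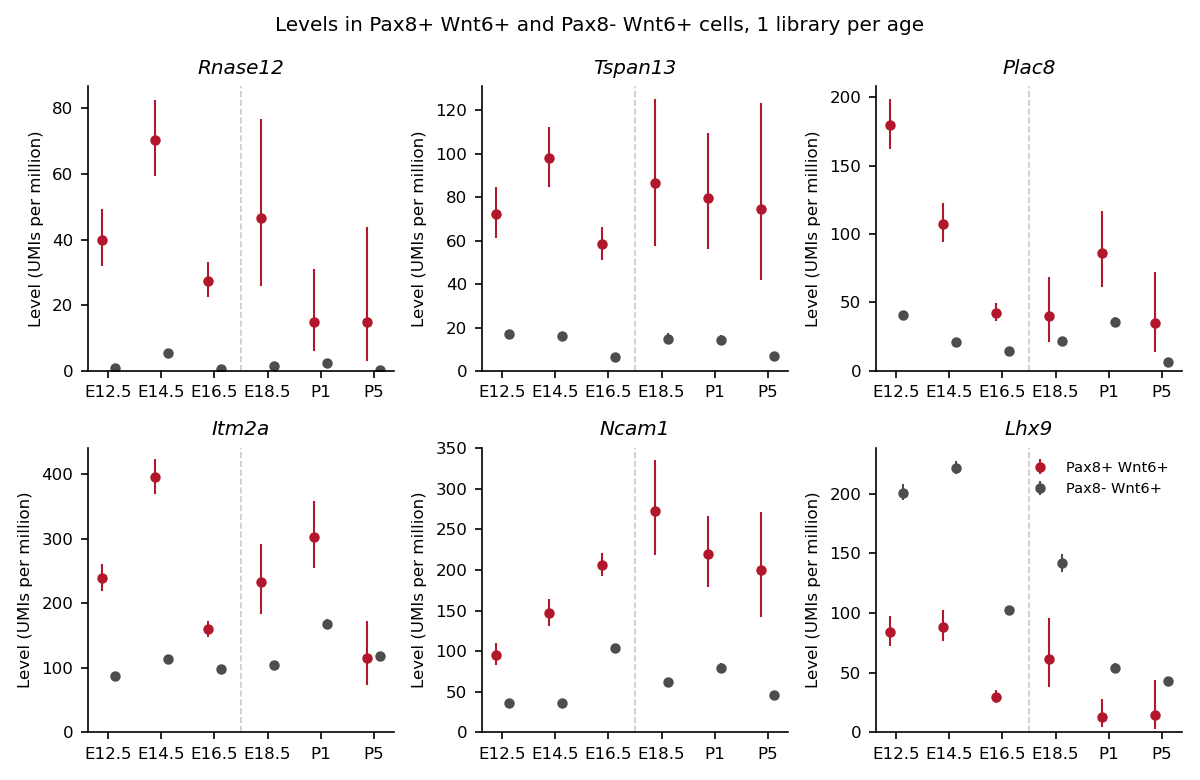
Levels (vertical axis, CPM, from 0) of 6 genes in Pax8-positive, Wnt6-positive cells (red) and Pax8-negative, Wnt6-positive cells (grey) of 6 libraries, with 95% exact Poisson intervals. The dashed line parts the libraries that the rule used from the later ones. Rnase12 and Tspan13 were higher in members in each library, and Lhx9 was lower in each. At P5 Rnase12 was below the level for a measured gene, and the interval of the Lhx9 ratio included 1.

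Few genes separated members from the comparison cells. At E12.5, 36 of 8204 measured genes were past 2-fold higher in members (0.439%) and 34 lower (0.414%). At E14.5, 82 of 8067 were higher (1.02%) and 38 lower (0.471%), and at E16.5, 77 of 9023 were higher (0.853%) and 63 lower (0.698%). The higher genes recurred: 25 of the 7428 genes measured at all 3 ages (0.337%) were higher at each. The 51 genes higher at both E14.5 and E16.5 were 62.2% of the first list and 66.2% of the second. Only 3 genes (0.0404%) were lower at all 3. For each of the 28 the interval of the ratio was clear of 1 at the 3 ages. Without the E16.5 library 32 genes were shared by the other two, with Itm2a, Ncam1 and Igfbp5 among those added.

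The 2 genes with the largest changes that held at each age were Rnase12 and Tspan13. With the limits on Epcam plus Cdh16, Upk3b and Dazl plus Ddx4 set to 0 UMIs, 22 of the 25 genes were still shared, but Rnase12, Plac8 and Cnr1 were not. When Pax8 and Wnt6 were required after thinning each cell to 2000 UMIs, which left few members, Rnase12 was not shared either and its log2 change at E16.5 turned to -0.24. In that setting members that lost their Pax8 UMI but kept Wnt6 were counted as comparison cells. Rnase12 (chr14:51056698-51057661, minus strand), a member of the ribonuclease A family, was at 39.9, 70.2 and 27.5 CPM in members and 0.930, 5.35 and 0.452 CPM in comparison cells. Its ratios were 43.0 (25.0 to 78.5), 13.1 (10.3 to 16.7) and 60.7 (35.8 to 110.0), from 85, 145 and 111 UMIs in members and 16, 142 and 16 in comparison cells. The far more numerous comparison cells thus held about as many Rnase12 molecules as the members at E14.5 and few at the other ages. Tspan13 (chr12:36014557-36042500, minus strand), which codes for a tetraspanin of the cell membrane, was at 72.4, 97.9 and 58.4 CPM against 16.8, 16.0 and 6.62 CPM, with ratios of 4.31 (3.52 to 5.26), 6.11 (5.14 to 7.24) and 8.83 (7.34 to 10.6). Rmst (chr10:92071037-92165170, minus strand), a long noncoding RNA, had 134, 136 and 1034 CPM against 45.4, 39.8 and 190.0 CPM and ratios of 2.95 (2.57 to 3.38), 3.41 (2.98 to 3.89) and 5.44 (5.23 to 5.65). Its level in members was several times higher in the E16.5 library than in the earlier ones, and the same held for the comparison cells of that library.

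Several of the 25 code for secreted proteins or their receptors. Egfl6 (chrX:166523007-166585720, minus strand), a secreted protein with EGF-like repeats, was at 194, 193 and 164 CPM in members and 42.7, 70.0 and 61.6 CPM in comparison cells. Pdgfc, a ligand of the PDGF receptors, was at 42.8, 52.3 and 62.1 CPM against 11.4, 7.92 and 12.4 CPM. C1qtnf12, a secreted C1q/TNF-related protein, was at 206, 195 and 160.4 CPM against 83.3, 75.0 and 67.3 CPM. The groups differed for these secreted proteins by 2.38-fold or more at each age. Sema3c, a secreted semaphorin, had ratios of 3.15 (2.51 to 3.92), 2.42 (2.02 to 2.89) and 2.68 (2.33 to 3.09). Nrp1, a co-receptor of semaphorins and VEGF, had ratios of 2.55 (2.06 to 3.14), 4.90 (3.91 to 6.10) and 3.9994 (3.47 to 4.5960). The call of Sema3c was lost with the mean of cell CPM and after thinning, and those of Nrp1, C1qtnf12, Igfbp6 and Nell1 against Foxl2-positive comparison cells. Igfbp6, a binding protein with a preference for IGF2, was at 30.1, 42.6 and 50.5 CPM against 9.12, 10.3 and 10.5 CPM. Nell1, a secreted protein known from bone, was at 24.0, 92.0 and 96.3 CPM against 6.92, 14.4 and 12.9 CPM. Emid1, a matrix protein with an EMI domain, was at 35.2, 59.6 and 44.6 CPM against 8.25, 11.049 and 6.5044 CPM. Of these, Nell1 had the widest span between ages, from a log2 change of 1.01 at E12.5 to 2.22 at E16.5.

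Others code for enzymes or transporters. Akr1c18 (chr13:4132615-4150654, minus strand), the 20-alpha-hydroxysteroid dehydrogenase that inactivates progesterone, was at 26.3, 28.6 and 25.3 CPM against 1.63, 2.41 and 4.58 CPM. Its counts may be shared with close relatives of the Akr1c family. Hsd17b11, a 17-beta-hydroxysteroid dehydrogenase, was at 189, 282 and 301 CPM against 84.4, 93.2 and 82.7 CPM. Both calls depended on the cells compared. Hsd17b11 was no longer shared against Foxl2-positive or depth-matched comparison cells or without cells with Y-linked UMIs, and Akr1c18 without cells of other types. Neither was shared after thinning, where the log2 change of Akr1c18 at E16.5 turned to -0.60. None of the genes of steroid synthesis itself was past 2-fold: of the 10 on a list with Star, Cyp11a1 and Hsd3b1, between 3 and 4 were measured, and the median log2 change was 0.01, -0.49 and -0.36. Stra6, the cell-surface receptor that takes up retinol, had ratios of 3.60 (2.72 to 4.73), 6.45 (5.14 to 8.07) and 5.43 (4.44 to 6.62). Xylt1, which starts the sugar chains of proteoglycans, had ratios of 2.84 (2.23 to 3.59), 3.0039 (2.42 to 3.70) and 2.61 (2.33 to 2.92). Slc25a21, a mitochondrial carrier of dicarboxylates, was at 22.6, 32.5 and 42.3 CPM against 3.66, 8.56 and 7.21 CPM.

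Among genes that act in the nucleus or the cell cycle, Cdkn1a (chr17:29090976-29100727, plus strand), the inhibitor of cyclin-dependent kinases known as p21, was at 136, 208 and 166 CPM in members and 32.5, 85.1 and 25.7 CPM in comparison cells. Ratios of Cdkn1a were 4.17 (3.61 to 4.82), 2.44 (2.20 to 2.71) and 6.49 (5.86 to 7.18), and its call was lost after thinning. Tbx2, a T-box repressor, was at 45.6, 53.8 and 113 CPM against 15.5, 10.3 and 23.5 CPM. Cdkn1a was the only shared gene on the list of 4 cell cycle inhibitors, and Cdkn1c, the most abundant of them, had log2 changes of 0.21, -0.37 and -0.22. Greb1, a gene known for its response to oestrogen, had ratios of 3.26 (2.85 to 3.73), 3.06 (2.69 to 3.47) and 2.52 (2.34 to 2.70). Jakmip1, a protein that binds Janus kinases and microtubules, had ratios of 4.39 (3.46 to 5.53), 3.90 (3.08 to 4.90) and 14.2 (12.4 to 16.3), the largest log2 change among genes higher in members at E16.5. Another 3 of the 25, Sorl1 (a sorting receptor), Nav2 (a protein of neurite growth) and Cnr1 (the cannabinoid receptor 1), had log2 changes from 1.01 to 1.94. The calls of all 3 were lost with 2 or more Wnt6 UMIs and after thinning. Those of Nav2 and Cnr1 were also lost against Foxl2-positive or depth-matched comparison cells and without cells with Y-linked UMIs. Of the 25 genes, 10 overlap an annotated gene on the opposite strand and 4 of these (Jakmip1, Stra6, Nav2 and Nell1) also another on their own strand, so that their counts are less certain.

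Members had less of 3 genes at each age, Lhx9, Aldh1a1 and Mt1. Against only those comparison cells that had a Foxl2 UMI, none of the 3 was still past 2-fold at all ages, nor were 11 of the 25 higher genes. Lhx9 (chr1:138825186-138848577, minus strand), a LIM homeobox factor needed to form the gonad, was at 84.6, 88.7 and 30.0 CPM in members and 201, 222 and 103 CPM in comparison cells, a ratio of 0.420 (0.360 to 0.489), 0.400 (0.343 to 0.463) and 0.291 (0.241 to 0.349). Aldh1a1, a retinal dehydrogenase that makes retinoic acid, was at 40.4, 79.0 and 141 CPM against 98.6, 193 and 421 CPM. Mt1, a metallothionein, was at 46.0, 307 and 56.7 CPM against 109, 753 and 232 CPM. Both groups had most Mt1 at E14.5, and the ratio stayed between 0.244 and 0.421. Its counts may be shared with the other metallothioneins.

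The same contrast in the later libraries gave the higher genes again. These libraries held 33, 48 and 21 members, which were 2.43, 3.62 and 1.17% of the Wnt6-positive cells. Of the 25 genes, 23 were past 2-fold higher at E18.5, where 2.54% of all measured genes were, 18 at P1 (1.65% of all) and 17 at P5 (4.40% of all). In the E11.5 library 1 of the 25 was past 2-fold higher (0.805% of all) and none of the 3 lower (0.914% of all). The P5 members also had more immediate early gene mRNA than their comparison cells, with 5 of 7 such genes past 2-fold higher, and its part in the P5 count was not tested. All 25 lay above 0 in each of the 3 later libraries, and 22 were past 2-fold in 2 or more. Their median log2 change was 1.59, 1.33 and 1.51, while the median of all measured genes was 0.05, 0.02 and 0.09. Of the 3 lower genes, Lhx9 and Aldh1a1 were past 2-fold lower in all 3 libraries (2.84, 1.60 and 4.03% of all genes) and Mt1 at E18.5 only. At P5 Lhx9 rested on 3 UMIs in members, and the interval of its ratio of 0.348 (0.0716 to 1.02) included 1. Tspan13 kept ratios of 5.84 (3.76 to 8.77), 5.55 (3.77 to 7.99) and 11.1 (5.98 to 19.1). Rmst had ratios of 4.40 (3.32 to 5.75), 5.70 (4.81 to 6.73) and 25.2 (18.985 to 33.1), with 192, 381 and 349 CPM in members against 43.6, 66.7 and 13.8 CPM. Rnase12 rested on few molecules after birth, with 7 UMIs in the members at P1 and 3 at P5. The 3 at P5 lay in a single cell (4.76% of the 21 members), and Rnase12 was below the level for a measured gene there. Sema3c at P1 had a ratio of 1.03 (0.583 to 1.70), the smallest among the 25 in any of these libraries.

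**Figure D3:**
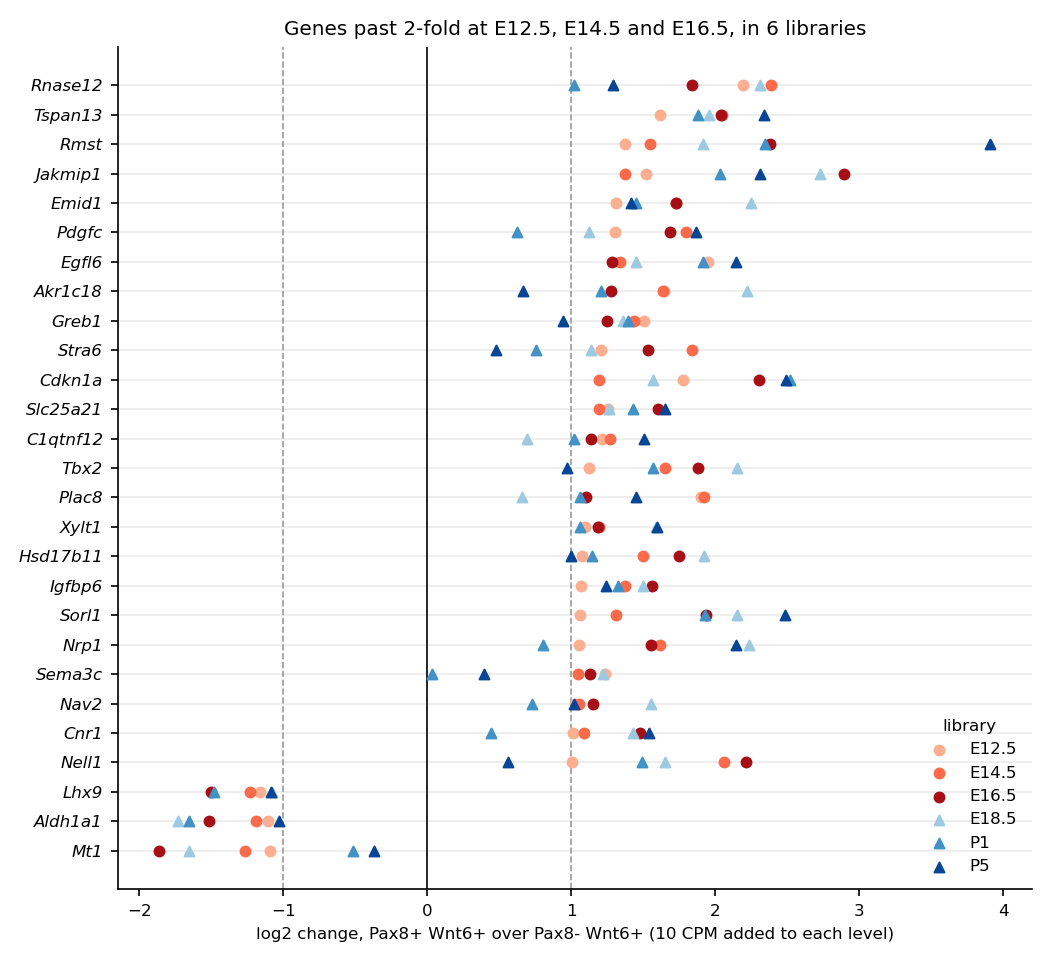
Log2 change between members and comparison cells (horizontal axis, 10 CPM added to each level) of 27 of the 28 genes past 2-fold at the 3 fetal ages, in the fetal libraries that chose them (circles) and in the later libraries (triangles). Dashed lines mark 2-fold. All triangles of the higher genes lie above 0, and Rmst at P5 reaches 3.91.

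Promoter sequence is shown for 3 of the shared genes because the members were chosen by the mRNA of a DNA-binding protein. The core that the PAX2, PAX5 and PAX8 group recognises, GTCACGC, was searched on both strands in RefSeq windows of 300 bases (250 before to 50 after a gene's start, GRCm38.p6). Of the 25 genes, 20 were in the table, with 33 promoters. The core was in 2 of these, of Cdkn1a and Cnr1 (6.06%), and in 687 of 32851 promoters of all genes (2.09%). Rmst, C1qtnf12, Tbx2 and Xylt1 were among those with no entry. The 250 bases before a start are printed 5′ to 3′ on the gene's own strand, with the core in capitals where it occurs, here as its reverse complement. For a gene with several promoters, one that held the core was printed where there was one. The Tspan13 stretch (chr12:36042479-36042728, minus strand), of a gene with one of the largest lasting changes, holds none. That of Cdkn1a is chr17:29093519-29093768, plus strand, and that of Cnr1 chr4:33924014-33924263, plus strand. The Cdkn1a stretch lies within the span of the gene given above, before an internal start. The core begins at base 45 of the Cdkn1a stretch and at base 240 of the Cnr1 stretch. A match is no evidence of binding, and no match says only that these letters are not in the window.
Tspan13: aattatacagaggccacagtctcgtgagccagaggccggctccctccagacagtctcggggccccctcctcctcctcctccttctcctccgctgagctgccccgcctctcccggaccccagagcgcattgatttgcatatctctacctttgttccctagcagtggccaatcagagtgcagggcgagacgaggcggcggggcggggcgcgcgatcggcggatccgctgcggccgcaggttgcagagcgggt
Cdkn1a: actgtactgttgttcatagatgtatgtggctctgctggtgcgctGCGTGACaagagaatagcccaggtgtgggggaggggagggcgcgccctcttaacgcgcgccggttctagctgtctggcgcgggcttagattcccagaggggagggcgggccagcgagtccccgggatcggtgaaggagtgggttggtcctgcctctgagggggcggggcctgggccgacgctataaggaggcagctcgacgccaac
Cnr1: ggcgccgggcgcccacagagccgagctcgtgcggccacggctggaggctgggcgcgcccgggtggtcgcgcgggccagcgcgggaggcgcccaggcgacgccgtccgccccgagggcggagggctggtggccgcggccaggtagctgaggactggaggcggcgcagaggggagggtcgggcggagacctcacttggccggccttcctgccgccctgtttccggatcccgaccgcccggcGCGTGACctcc

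Since the shared genes were found by the Pax8 count, their levels by that count are a description only, given here for 3 of them. Rnase12 was at 0.930, 5.35 and 0.452 CPM in cells with no Pax8 UMI, at 25.1, 52.8 and 9.46 CPM in those with 1 and at 70.8, 116 and 47.3 CPM in those with 2 or more. Tspan13 went from 55.7, 82.3 and 39.7 CPM with 1 UMI to 107, 139 and 79.0 CPM with 2 or more. Lhx9 went the other way, from 102, 105 and 44.5 CPM to 49.1, 45.7 and 14.0 CPM. For these 3 genes members with 1 Pax8 UMI stood between the comparison cells and the members with more. With only the latter as members, Xylt1, Aldh1a1 and Mt1 were no longer shared. Gata4, a factor of gonadal somatic cells, showed no such step, with 97.5, 114 and 141 CPM and 98.3, 112 and 145 CPM.

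Cells with Pax8 but no Wnt6 UMI that passed the other limits (105, 82 and 87) had even more of several of these mRNAs. Rnase12 was at 163, 107 and 94.8 CPM in them, Plac8 at 576, 167 and 74.6 CPM and Ncam1 at 296, 331 and 502 CPM. They had less of 2 supporting cell genes, with Gata4 at 43.3, 86.5 and 112 CPM and Foxl2, the pregranulosa factor, at 25.4, 49.7 and 108 CPM, against 53.6, 86.2 and 221 CPM of Foxl2 in members. For Rnase12, Plac8 and Ncam1 the members thus lay between these cells and the comparison cells. Foxl2 itself was near equal in members and comparison cells at E12.5, with ratios of 0.966 (0.788 to 1.17), 1.61 (1.37 to 1.88) and 0.814 (0.759 to 0.872) in the order of the ages.

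The defining factors of mesonephric tubules were compared with those in tubule cells. Cells with Pax8 and 2 or more UMIs of Epcam plus Cdh16 numbered 100 at E12.5, 11 at E14.5 and 30 at E16.5. At E12.5 they had 137 CPM of Pax2 and 214 CPM of Lhx1, both factors of the nephric duct and tubules, where members had 10.3 and 8.46 CPM and comparison cells 2.44 and 0.116 CPM. Members thus had more of both than the comparison cells at that age. At E14.5 and E16.5 members had 2.42 and 2.23 CPM of Pax2, Lhx1 was at 0.484 and 0 CPM, and no UMI of Cdh1, Sall1 or Wnt9b was counted in them. Of the 12 tubule genes that the limits did not use, 2, 1 and 1 were measured. Wfdc2 alone was past 2-fold higher, at E12.5, where 0.439% of all genes were. Its level there was 23.0 CPM against 6.39 CPM.

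**Figure D4:**
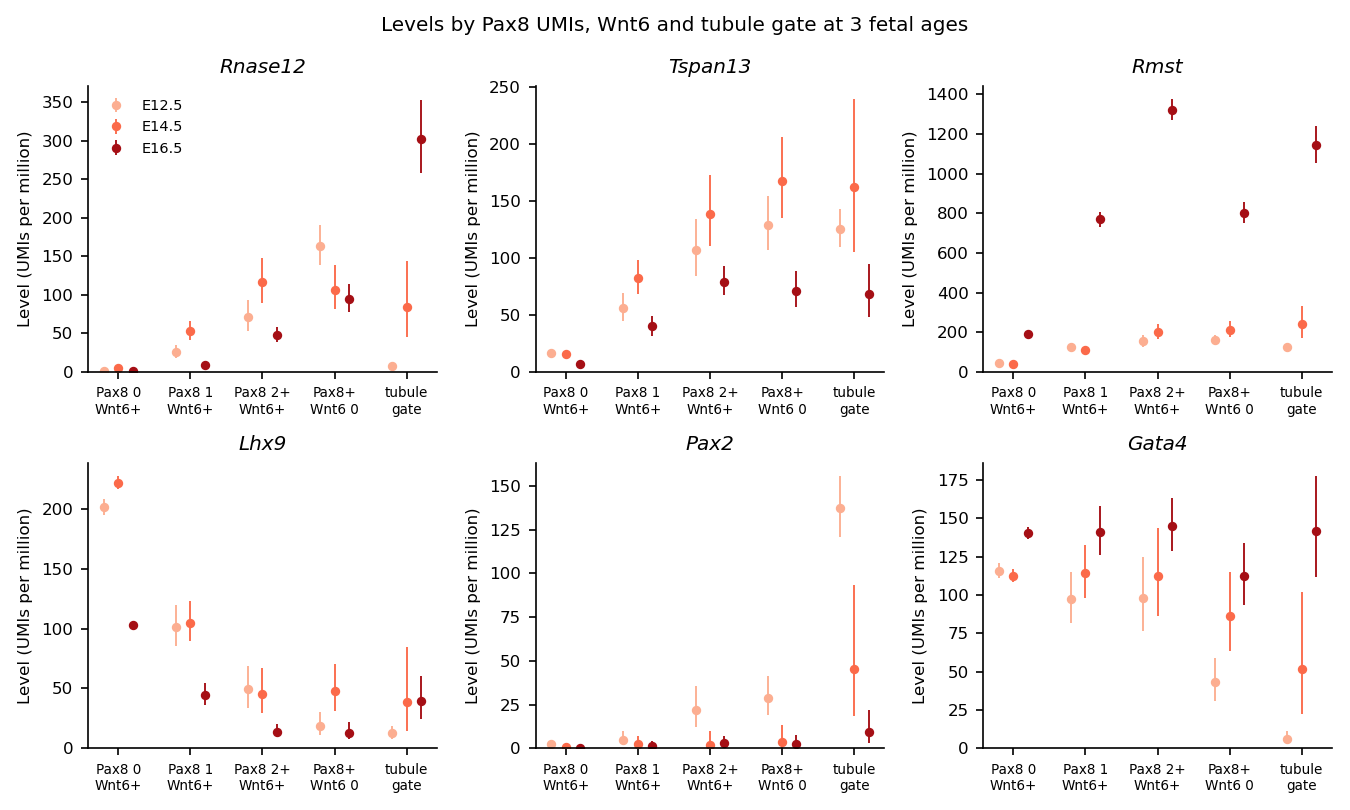
Levels (vertical axis, CPM, from 0) of 6 genes at the 3 fetal ages in Wnt6-positive cells with 0, 1, or 2 or more Pax8 UMIs, in Pax8-positive cells without Wnt6, and in the tubule gate, with 95% exact Poisson intervals. Rnase12 and Tspan13 step up and Lhx9 steps down with the Pax8 count, Pax2 is high in the E12.5 tubule gate, and Gata4 is level across the Wnt6-positive groups.

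The general factors of gonadal supporting cells were present in members at levels close to those of the comparison cells. Wt1 was at 326, 369 and 315 CPM against 307, 399 and 292 CPM, Gata4 at 97.7, 114 and 143 CPM against 116, 113 and 141 CPM and Nr5a1 at 43.7, 34.4 and 46.3 CPM against 60.6, 42.6 and 46.2 CPM. Of the 12 factors listed, 11 were measured at each age, and their median log2 change was -0.04, -0.02 and 0.02. Of these factors 1, 1 and 2 were past 2-fold lower, where 0.414, 0.471 and 0.698% of all genes were. At E16.5 1 was higher, where 0.853% of all genes were. Besides Lhx9, Irx3 was past 2-fold lower at E16.5, with ratios of 0.669 (0.588 to 0.759), 0.498 (0.442 to 0.560) and 0.397 (0.357 to 0.440). Nr0b1, a nuclear receptor that opposes Nr5a1, was the only one higher, past 2-fold at E16.5 with ratios of 2.02 (1.67 to 2.42), 2.18 (1.75 to 2.68) and 3.41 (2.75 to 4.20). It was past 2-fold again in all 3 later libraries, with ratios of 5.99 (3.78 to 9.13), 8.14 (5.93 to 11.027) and 7.10 (3.79 to 12.3). Sox9, a factor of Sertoli cells and of many tubular epithelia, had ratios of 0.973 (0.807 to 1.17), 2.20 (1.85 to 2.59) and 2.24 (1.92 to 2.60) and was not past 2-fold at any of the 3 ages.

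Another 2 lists were named by the study on these same samples and are therefore no independent evidence. Of the 5 genes of the pathway from the ovarian epithelium (Lgr5, Gng13, Gpc3, Aldh1a2 and Lhx9), 1 was past 2-fold lower at E12.5, 3 at E14.5 and 4 at E16.5, where 0.414, 0.471 and 0.698% of all genes were, and none was higher. Gng13, a G protein gamma subunit, was at 123, 387 and 122 CPM in members and 217, 1136 and 349.7 CPM in comparison cells. Lgr5, a receptor of R-spondins, was at 12.2, 16.0 and 15.1 CPM against 27.7, 70.7 and 98.2 CPM, with ratios of 0.442 (0.286 to 0.655), 0.226 (0.155 to 0.318) and 0.154 (0.117 to 0.198). Comparison cells thus had more Lgr5, Gng13 and Lhx9 mRNA at each age. Aldh1a2 was higher in members, with ratios of 1.13 (0.921 to 1.38), 1.30 (1.10 to 1.53) and 1.34 (1.21 to 1.48), and Gpc3, a glypican, had ratios of 0.967 (0.859 to 1.09), 0.567 (0.483 to 0.663) and 0.403 (0.347 to 0.465). Of the 13 genes of the bipotential pathway that the limits did not use, 12 were measured, 1 was lower at each age (Aard at E12.5, Bmp2 at E14.5 and E16.5) and none was higher. Their median log2 change was 0.06, 0.14 and 0.07. Kitl, the ligand of Kit on germ cells, had ratios of 0.654 (0.59997 to 0.711), 0.577 (0.527 to 0.630) and 0.525 (0.504 to 0.547).

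Of the genes that might mark rete or supporting-like cells, 9, 8 and 8 were measured besides the rule genes. Plac8 was past 2-fold higher at all 3 ages, but not so with the 3 limits at 0 UMIs, with at most 10% mitochondrial UMIs or with comparison cells matched on depth. Itm2a and Ncam1 were past 2-fold at 2 ages and Aldh1a3 at E14.5 and E16.5. In all, 3, 4 and 2 genes of the list were past 2-fold higher, where 0.439, 1.02 and 0.853% of all genes were. Aldh1a3, another retinal dehydrogenase, was at 16.0, 28.6 and 40.4 CPM against 4.07, 5.54 and 4.33 CPM and was again past 2-fold in the 3 later libraries, with ratios of 9.45 (4.95 to 17.0), 6.10 (2.58 to 12.9) and 19.4 (8.22 to 40.8). The epithelial keratins were not higher, with ratios of 0.945 (0.811 to 1.10), 0.705 (0.599 to 0.824) and 0.662 (0.582 to 0.750) for Krt8 and 0.961 (0.837 to 1.10), 0.906 (0.801 to 1.02) and 0.549 (0.479 to 0.627) for Krt18. Gfra1 was all but uncounted (2.82, 0.484 and 1.49 CPM), and Cdh2 was past 2-fold lower at E16.5, where 0.698% of all genes were. The median log2 change of the list was -0.03, 1.13 and 0.78. Pax8, Plac8, Itm2a and Ncam1 gave the cells their working name and cannot support it, and the keratins, Gfra1 and Cdh2 did not set the members apart in its direction.

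Wnt signalling genes past 2-fold were mostly receptors and targets at the later fetal ages, where 1.02 and 0.853% of all genes were higher and 0.471 and 0.698% lower. Among ligands and R-spondins none of the 3 or 4 measured was past 2-fold at the fetal ages, and Wnt4, which directs ovarian differentiation, was at 432, 474 and 664 CPM in members and 280.3, 344 and 461 CPM in comparison cells, a ratio of 1.54 (1.43 to 1.65), 1.38 (1.29 to 1.47) and 1.44 (1.38 to 1.5008). Rspo1, its partner in ovarian fate, had ratios of 1.23 (1.07 to 1.40), 1.09 (0.976 to 1.22) and 1.59 (1.45 to 1.73) and was past 2-fold in each of the 3 later libraries, with ratios of 2.95 (2.37 to 3.64), 2.21 (1.76 to 2.75) and 3.22 (2.25 to 4.47). Of the receptors 6, 6 and 9 were measured, with none past 2-fold at E12.5, Lgr5 lower at E14.5, and Lgr4 higher and Lgr5 lower at E16.5. Lgr4 had ratios of 1.52 (1.29 to 1.77), 1.30 (1.15 to 1.46) and 2.26 (2.12 to 2.42). Axin2 and Nkd1, both targets of the pathway, had ratios of 1.55 (1.28 to 1.87), 1.10 (0.921 to 1.30) and 1.51 (1.39 to 1.64) and 1.47 (1.27 to 1.70), 1.60 (1.42 to 1.79) and 1.71 (1.56 to 1.86), and none of the 10 or 11 targets measured was past 2-fold higher. Lgr5 at both later fetal ages and Irx3 at E16.5 were past 2-fold lower. Of the inhibitors 4, 4 and 6 were measured, and Sfrp1 alone was past 2-fold, lower at E16.5.

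Retinoic acid genes differed in both directions. Of 12 on the list 9, 8 and 7 were measured, of which 1, 2 and 2 were past 2-fold higher (0.439, 1.02 and 0.853% of all genes) and 1 was lower at each age (0.414, 0.471 and 0.698%). Stra6, for uptake, was higher at the 3 ages, and of the enzymes that make retinoic acid Aldh1a3 was higher at 2 ages while Aldh1a1 was lower at all 3. Cyp26b1, which breaks retinoic acid down, was at 5.17, 0.969 and 0.743 CPM in members. The enzymes of one step thus differed in opposite directions.

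Of the 16 TGF beta family genes, of which 12, 12 and 10 were measured, 1 was higher at E14.5 only and 1 was lower at each fetal age, where 1.02% of all genes were higher and 0.414, 0.471 and 0.698% lower. Of the IGF genes 1 of 10 measured was higher at E12.5 and 1 of 8 at E14.5, where 0.439 and 1.02% of all genes were, and 3 of 10 were lower at E16.5, where 0.698% of all genes were, namely Igf1, Igfbp3 and Igfbp7, with log2 changes of -1.15, -1.11 and -1.14. Igfbp5, an IGF binding protein, was at 419.6, 379.8 and 811 CPM against 156, 139.6 and 598 CPM, past 2-fold at E12.5 and E14.5. Bmp2 was at 38.5, 26.6 and 21.3 CPM against 73.7, 83.9 and 63.3 CPM, past 2-fold lower at E14.5 and E16.5. Tgfb2 was past 2-fold higher at E14.5 only, with ratios of 2.26 (1.73 to 2.91), 3.77 (3.03 to 4.66) and 1.69 (1.4981 to 1.90). Of the 13 FGF and GDNF genes 3, 5 and 3 were measured, with Ret higher at E14.5 and E16.5 and Spry2, an inhibitor of receptor signalling, lower at E14.5 (65.9 against 164 CPM), against the same shares of all genes. Ret, the receptor of the GDNF family, was low but higher in members, at 8.46, 17.4 and 23.0 CPM against 1.86, 3.70 and 2.63 CPM. The ligand Gdnf had no UMI in the members at E12.5 or E14.5. Of the 12 Notch genes 4 were measured at each age, and Dlk1 alone was past 2-fold, lower at E16.5. Cldn11, a tight junction protein, was higher at E14.5 and E16.5, with ratios of 1.17 (0.823 to 1.62), 3.83 (3.09 to 4.71) and 5.08 (3.8044 to 6.73). Among the genes of the basement membrane and matrix, 1 of 8 measured, Hspg2, was past 2-fold higher at E14.5, and 3 of 9, Col4a1, Col4a2 and Fn1, were lower at E16.5, against the same 1.02 and 0.698% of all genes.

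The median change of the cell division genes was toward lower levels in members at each fetal age, although few of the genes were past 2-fold. All 14 were measured at E12.5, 11 at E14.5 and 10 at E16.5, with median log2 changes of -0.63, -0.34 and -0.58 while the median of all genes was between 0.00 and 0.03. Mki67 and Cenpf were past 2-fold lower at E16.5, where 0.698% of all genes were. None was at E12.5 or E14.5, where 0.414 and 0.471% of all genes were. Mki67 was at 25.4, 4.36 and 30.7 CPM in members and 38.6, 6.83 and 79.0 CPM in comparison cells. In the later libraries, which the rule did not use, 10 of 12 measured division genes were past 2-fold lower at E18.5, 1 of 14 at P1 and 8 of 14 at P5, where 2.84, 1.60 and 4.03% of all genes were. The calls at E18.5 and P5 rest on few molecules in 33 and 21 members, with no UMI of 3 of the 14 genes at either age. Immediate early genes, which respond to dissociation, were past 2-fold in neither direction, with a median log2 change of 0.25, 0.31 and -0.34. At P5, however, 5 of these 7 genes were past 2-fold higher in members, where 4.40% of all genes were, with a sum of 10639 against 4903 CPM.

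**Figure D5:**
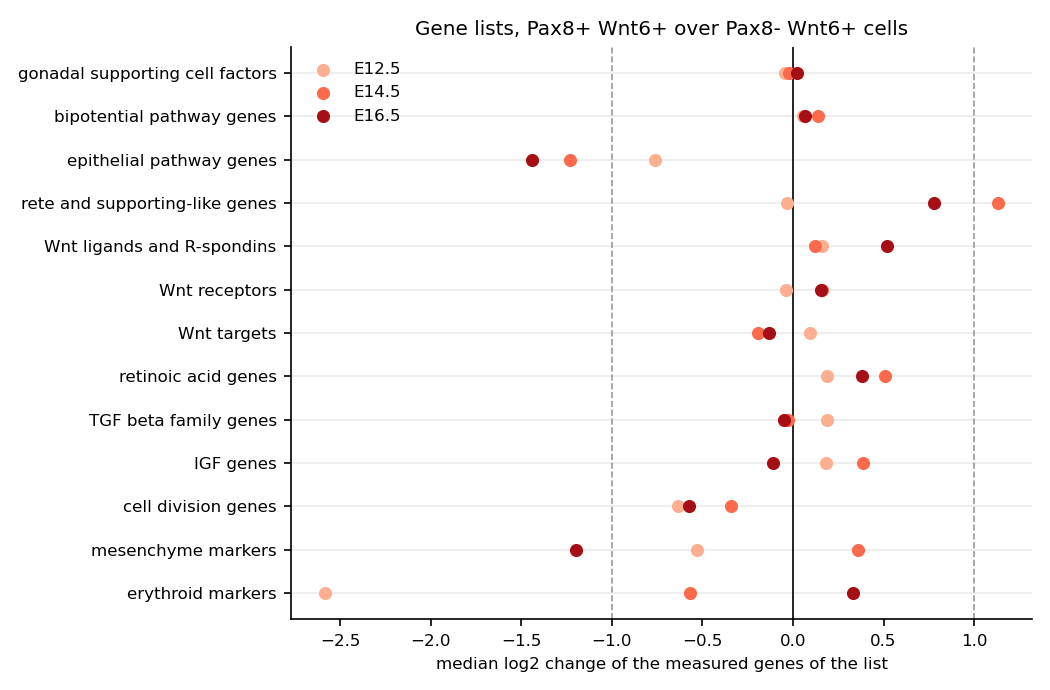
Median log2 change between members and comparison cells (horizontal axis, 10 CPM added to each level) over the measured genes of 13 gene lists at the 3 fetal ages. Dashed lines mark 2-fold: the epithelial pathway list lies beyond the lower line at E14.5 and E16.5, the mesenchyme list at E16.5 and the erythroid list at E12.5, and the rete and supporting-like list lies beyond the upper line at E14.5.

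The largest changes toward lower levels at each age were mostly in mRNAs of blood cells. At E12.5 they were Hba-x, Cst9 and Hba-a1, at E14.5 Hbb-y, Hba-x and Lgr5, and at E16.5 S100a9, S100a8 and Ngp. The summed level of the 8 erythroid markers was 945, 4909 and 8231 CPM in members and 6246, 7408 and 6249 CPM in comparison cells, led by Hbb-y at E12.5 (592 against 4054 CPM). The direction of that sum turned at E16.5. The neutrophil gene S100a9 was at 1.98 CPM in E16.5 members and 168 CPM in comparison cells, and the 7 immune markers summed to 4.23, 0.969 and 1.98 CPM against 23.5, 7.35 and 45.9 CPM, with Ptprc at 0 in members at each age. With cells of endothelial, immune or erythroid gates removed from both groups, 22 of the 25 higher genes remained shared (not Akr1c18, Nell1 or Sorl1) and 2 of the 3 lower (not Mt1). In the later libraries the erythroid sum was 829.6, 3414 and 2165 CPM in members and 4813, 23321 and 6429 CPM in comparison cells, and at P1 members had 467 CPM of Lyz2, a lysozyme of myeloid cells, against 165 CPM. The part of blood cell RNA in the single changes was not tested.

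At E12.5 the sex of the cells moved with the groups. Cst9, a cystatin of fetal Sertoli cells, was at 6.58 CPM in members and 116 CPM in comparison cells, and Amh, the Sertoli cell hormone, at 5.64 and 87.2 CPM. The 4 Y-linked genes summed to 10.3 CPM in members and 24.6 CPM in comparison cells. Without the cells that had a Y-linked UMI, 15 in place of 34 genes were past 2-fold lower at E12.5, 34 in place of 36 higher, and the log2 change of Cst9 was -0.97 in place of -2.93. Of the 25 shared genes 20 remained, without Cnr1, Hsd17b11, Igfbp6, Nav2 and Nrp1, which had been close to the limit at E12.5, and of the 3 lower genes Aldh1a1 was lost.

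After the erythroid markers, those of mesenchyme had the highest sums among the markers of other types. The 8 mesenchyme markers summed to 225, 296 and 677 CPM in members and 347, 221 and 1390.5 CPM in comparison cells. Nr2f2 led these sums at E12.5 and Col3a1 later. Of the 7 measured at E16.5, 4 (Col1a1, Col1a2, Dcn and Lum) were past 2-fold lower, where 0.698% of all genes were. The 7 endothelial markers summed to 31.0, 60.6 and 26.2 CPM against 68.2, 40.5 and 88.7 CPM, the 6 mural cell markers to 39.0, 82.4 and 59.4 against 82.3, 55.6 and 80.7 CPM and the 7 germ cell markers to 20.7, 55.7 and 20.1 against 17.1, 58.9 and 23.2 CPM. For the mesenchyme, endothelial and mural lists the sum in members was the higher one at E14.5 only. The 7 surface epithelium markers summed to 84.1, 111 and 139 CPM against 83.7, 105 and 141 CPM, most of it Aldh1a2, with Msln at 0 in members at E12.5 and E14.5.

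Single members differed widely in how many of the 25 genes they showed. The median member had a UMI of 10.5 of the 25 genes at E12.5, 10 at E14.5 and 15 at E16.5, where the median comparison cell had 5, 3 and 6, a difference fixed by choosing the genes in these libraries. In the later libraries, which did not choose the genes, members had a median of 11, 9.5 and 10 in order of age, against 3, 3 and 4. At the 10th and 90th percentile members had 5 and 16 genes at E12.5, 4 and 17 at E14.5, and 8.4 and 19.6 at E16.5, and some had none at the first 2 ages. With cells thinned to 2000 UMIs, the median was 3.5, 4 and 5 genes against 1 at each fetal age in comparison cells. Where a member lay among the clusters went with these genes, which the clustering had used: Rnase12 was at 89.1, 104 and 36.9 CPM in members inside the Pax8-rich cluster and at 4.83, 0 and 0 CPM in those outside it. Comparison cells inside that cluster, which had no Pax8 UMI, had 13.1, 45.2 and 6.02 CPM of Rnase12 and 126, 79.1 and 24.6 CPM of Tspan13, against 12.8, 8.14 and 5.64 CPM of Tspan13 in comparison cells elsewhere. Their Lhx9 was at 21.3, 78.8 and 31.8 CPM, close to that of the members inside it (33.9, 58.8 and 22.6 CPM). The members outside the cluster had Lhx9 at 121, 151 and 51.5 CPM, between the members inside it and the comparison cells as a whole.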

How the data were processed

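The authors made UMI counts per gene and cell with Cell Ranger 3.1.0 from 10x Genomics v2 libraries, using the mm10 reference version 3.0 of 10x Genomics. The submitters' processing notes also name Seurat. The deposited counts, over 31053 genes, were whole numbers and had not been normalized. Here counts were summed over the cells of each group, scaled to 1000000 (CPM) and compared within each library as described with the results, on 95% exact Poisson, conditional and binomial intervals, with Python 3.11.15, numpy 2.4.6 and scipy 1.17.1. Clusters were made with scanpy 1.11.5, the neighbour search of scikit-learn and the Leiden method of igraph (2000 variable genes, 20 principal components, 20 neighbours, resolution 0.6). Positions came from GENCODE vM21. The contrast was also run on simulated summed counts with counting error only. That simulation had no spread between cells and cannot show how the contrast performs with such spread. PCR and sampling of cells are not covered by counting intervals. The members, the gene lists and the tests were chosen with earlier results of these data known. Named genes were the rule genes and markers, the 20 higher shared genes with the largest smallest change and the 3 lower shared genes. They also included the 3 leading genes of each age and direction, and list members past 2-fold at 2 or more ages or defining a list. Sema3c, Nrp1, Nell1, Nav2, Cnr1 and others were named after their values were seen. Some genes counted in the totals are not reported here by name. The E11.5 library entered no main comparison.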

Additional observations from a re-analysis of the deposited data

Results flagged for a closer look

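In the E11.5 library, which took no part in choosing the members or shared genes, 26 of 341 Wnt6-positive cells of the same limits (7.62%, 95% exact binomial interval 5.04 to 10.97) had a Pax8 UMI. It is listed because the signal lies in a library outside the main comparisons and above its level in erythroid cells, 0.791% of 253. Endothelial cells stood at 2.11% (0.256 to 7.40) and immune cells at 1.46% (0.177 to 5.17), with intervals that met that of the Wnt6-positive cells, and after thinning to 2000 UMIs the share was 1.18%.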

How the results depend on the processing

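Members and comparison cells of an age shared 1 library, and no fit with the library as a block was run. The 25 higher and 3 lower shared genes became 51 and 18 without E12.5, 27 and 6 without E14.5, 32 and 6 without E16.5, 42 and 12 for members with 2 or more Pax8 UMIs, 39 and 11 with 1 CPM added, 1 and 0 with 50 CPM added, 73 and 24 at 1.5-fold, and 2 and 0 at 3-fold (Rnase12 and Tspan13). With 2 or more Wnt6 UMIs 20 of the 25 were kept (without Cnr1, Igfbp6, Nav2, Nell1 and Sorl1) and the lower genes numbered 5, and they numbered 10 when Pax8 and Wnt6 were required after thinning to 2000 UMIs. In that last setting members that lost their Pax8 UMI but kept Wnt6 were counted as comparison cells. The setting left 25, 51 and 38 members and 13 of the 25 genes. It turned the log2 change of Rnase12 at E16.5 to -0.24, of Akr1c18 at E16.5 to -0.60 and of Cnr1 at E14.5 to -0.072. Besides these genes it lost C1qtnf12, Cdkn1a, Hsd17b11, Nav2, Pdgfc, Rmst, Sema3c, Sorl1 and Xylt1. Against comparison cells with Foxl2, 14 of the 25 and none of the 3 remained, with comparison cells matched on depth 20 and 2, and with the limits on other types at 0 UMIs 22 and 2. In the order of the ages, the counts became 91, 207 and 132 higher and 96, 147 and 147 lower with 2 or more Pax8 UMIs, 76, 173 and 132 higher and 97, 79 and 150 lower with 1 CPM added, 6, 14 and 17 higher and 10, 5 and 10 lower with 50 CPM added, 151, 260 and 226 higher and 158, 154 and 241 lower at 1.5-fold, and 7, 13 and 21 higher and 12, 3 and 13 lower at 3-fold. After thinning there were 241 higher at E12.5 and 242, 95 and 102 lower. At E12.5, 22 were lower against Foxl2-positive cells and 15 without cells with Y-linked UMIs, and at E16.5, 208 were lower in cells with at most 10% mitochondrial UMIs. The cause of these moves was not tested beyond the stricter or looser limit that a setting itself imposes. The percentage of shared higher genes past the fold in the later libraries, 92, 72 and 68 by age, was 100, 100 and 0 for the single gene left (Greb1) with 50 CPM added and 100, 50 and 50 for the 2 at 3-fold. Under all others it ranged over 76 to 96, 59.4 to 84 and 62.5 to 80. The Pax8 share of the leading cluster at E14.5 was 31.9% at resolution 1.2 and 30.3% with 10 principal components, holding 39.1 and 54.0% of members, and at E16.5 it held 51.6 and 56.7%, where the next cluster stood at 49.6 and 34.3%. Alternatives without cells of doubted identity (Y-linked UMIs, other types, the Pax8-rich cluster) were chosen after seeing the data. Depth limits Pax8 itself: most members rest on 1 molecule, and cells without a Pax8 UMI may still express it.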

Other observations

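Further genes were past 2-fold at the later fetal ages but not at all 3. Leaving out E12.5, 51 genes were past 2-fold higher at both E14.5 and E16.5, and besides the 25 shared genes and Aldh1a3, Ret and Cldn11 they included Msx1, a homeobox factor, Bmpr1b, a BMP receptor, Efnb2, an ephrin ligand, Fbln2, a matrix protein, and Peg10, an imprinted gene. These were picked after their values were seen, and a difference between the ages was not tested.

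At E11.5 there were only 26 cells with Pax8 and Wnt6. C1qtnf12 alone of the 25 was past 2-fold higher, where 0.805% of all measured genes were, and 19 lay above 0, with a median log2 change of 0.25. The library held cells of both sexes, with a Y-linked UMI in 53.8% of these cells and in 40.6% of its Wnt6-positive cells without Pax8. Scrublet marked 6 of the 26 as doublets.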
